A study of Mus musculus with 148 samples.

Results

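CD4 *S100a4* cells were 1 of the T cell groups into which the authors sorted the immune cells of mouse lungs and breast tumors, and they were chosen here as the wells whose deposited label opens with T and holds both CD4 and *S100a4*. This gave 903 of 24020 annotated wells, or 3.76%, and 13.2% of the 6846 wells labelled as T cells. All 27 mice and 60 of the 63 samples (1 tissue of 1 mouse) held at least 1 such cell. Female C57BL/6 mice that carry photoactivatable GFP (PA-GFP) in their cells received EO771-tdTomato breast tumor cells in a mammary gland at 8 weeks of age. The tumor was resected 3 weeks later, and the lungs were followed by CT. The groups were Normal lungs of mice without a tumor, Pre-MET lungs taken while the tumor was still in place, and Primary tumors. After resection there were Relapse-free lungs without visible metastasis, sections holding a metastasis (MET) and distal normal tissue of the same lungs. MET Core and MET Invasive margin were cells labelled by light inside or around a lesion, sorted as CD31- GFP+ (in the core of mouse 17 also as CD45+). The margin was taken from the status label, although the target label of mouse 17 and the area label of several other mice name another region. Most other samples were sorted as CD31- CD45+. EO771 is 1 cell line in 1 strain, so all groups with a tumor share it.

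Memory and effector CD4 T cells are cells that have met antigen. They have lost much of the program of naive cells, which recirculate through lymph nodes with the help of the chemokine receptor encoded by *Ccr7*, and they carry raised levels of several other proteins, among them those encoded by *S100a4*, *Crip1* and *Lgals1*. Helper subsets, γδ T cells and innate lymphoid cells of the lung share parts of this program.

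The 903 wells held a median of 1007 unique molecular identifiers (UMIs, each 1 captured mRNA molecule) and 455 genes, and single wells ran from 501 to 13780 UMIs. Wells of primary tumors were deeper, with a median of 1465 UMIs over 87 wells, against 1015 over 98 wells of Normal lungs and 767 over 36 wells of Pre-MET lungs. The other tissues had medians between 874 and 1051 UMIs. Because depth differed, the share of cells with a UMI of a gene was computed after every well was thinned at random to 500 UMIs, the minimum that the authors set. Normal lungs, and the 3 primary tumors that entered the expression comparisons, were each sequenced in a batch of their own, so batch and tissue cannot be told apart in any expression comparison with either.

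*S100a4*, a calcium-binding protein gene at chr3:90603771-90606045 (mm10), was the gene for which the cells were named. A UMI of it was present in 252 of the 903 wells (27.9%), and in 20.6% after thinning. The thinned share was 3.73% in CD4 *Lef1* cells (3026 wells, median 933.5 UMIs), which are the naive-like CD4 cells of the same study, 22.8% in regulatory T (Treg) cells and 1.71% in B cells. *Cd4*, the coreceptor gene at chr6:124864692-124888221, was found in 69 wells (7.64%). After thinning its share was 4.65%, close to the 4.99% of CD4 *Lef1* cells, below the 14.1% of Treg cells, and above the 0.0948% of B cells. So few wells held a *Cd4* UMI that the label could not be checked well by well.

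T cell receptor genes were read in most wells. *Trac*, *Trbc1* or *Trbc2*, the constant parts of the αβ receptor, gave a UMI in 61.5% of wells (50.2% after thinning), and *Cd3d*, *Cd3e* or *Cd3g* in 50.9%. After thinning the CD3 share was 38.0%, lower than in CD4 *Lef1* cells (46.4%) and Treg cells (65.5%) and far above B cells (1.80%). By tissue it was lowest in primary tumors, at 24.1%, and lay between 30.6 and 44.3% in the others. *Cd8a* or *Cd8b1* was seen in 6.31% of thinned wells against 30.3% of CD8 *Gzmk* cells. Such a UMI was also read in 19.1% of thinned CD4 *Lef1* wells, more than the 4.99% of them with a *Cd4* UMI. *Foxp3*, which defines Treg cells, was found in 16 of the 903 wells, or 0.997% after thinning, against 13.6% of Treg cells. The B cell genes *Cd79a* or *Ms4a1* were found in 8 wells (0.886%), and in 0.221% after thinning, against 48.1% of B cells. *Lyz2* (15.6%) stood near the level of B cells (17.2%), and *Ccl5* (15.2%) somewhat above theirs (11.1%). B cells should lack both, and how much of either was background was not tested.

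**Figure D1:**
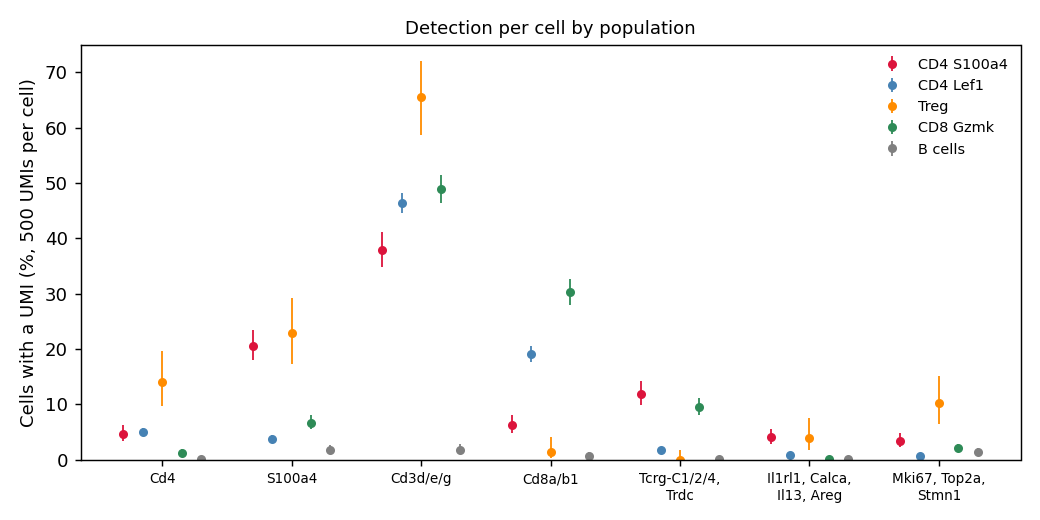
Share of cells with at least 1 UMI of each gene or gene group (y axis, percent, after thinning to 500 UMIs per cell) in CD4 S100a4 cells and 4 other populations; points are shares and bars exact 95% binomial intervals, which cover counting error only. CD4 S100a4 cells reach 20.6% for S100a4 beside 22.8% of Treg cells, and 4.65% for Cd4 beside 4.99% of CD4 Lef1 cells.

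The wells were not of 1 kind. γδ T cell receptor constant genes (*Tcrg-C1*, *Tcrg-C2*, *Tcrg-C4* or *Trdc*) had a UMI in 139 wells (15.4%, and 11.96% after thinning). The thinned share was 1.85% in CD4 *Lef1* cells, 9.55% in CD8 *Gzmk* cells and 0.19% in B cells. In Treg cells such a UMI was read in 1 of 206 wells before thinning and in none after it, with an exact 95% upper limit of 1.78%. Since these wells were picked out after their values had been seen, what follows describes them without a test. They came from 25 mice and were deeper, with a median of 1232 UMIs against 965 in the other 764 wells. *Cd4* was found in 2 of the 139 (1.44%) and in 67 of the 764 (8.77%). *Trdc*, the δ chain gene among the γδ constant genes, was read in only 31 of the 903 wells (3.43%, and 2.33% after thinning).

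Several surface and signaling genes of IL-17 producing γδ cells were more frequent in the wells with a γδ receptor UMI. *Cd163l1*, a scavenger receptor gene of these cells, was read in 17 of 139 wells and in none of the other 764, and *Tcrg-V6*, a variable segment of the γ chain, in 4 and none. *Blk*, a Src family kinase, was seen in 9.35% against 0.654% of wells. *Il23r*, the IL-23 receptor gene, was seen in 6.47% against 0.654%. The transcription factor gene *Maf* reached 25.2% against 10.1%, and *Cxcr6*, a chemokine receptor gene of tissue-homing T cells, 45.3% against 8.25%. The cytokine genes themselves were rare in both. *Il17a* was read in 4 of 139 and 10 of 764 wells, *Il17f* in 1 and 4, and *Il22* in none and 2. *S100a4* itself was seen in 59.7% of the wells with a γδ receptor UMI and in 22.1% of the others, so a share of the *S100a4* signal came from wells with hardly any *Cd4*. αβ constant genes were as frequent in both, at 61.9% and 61.4%. Receptor sequences were not analysed here, and a well can carry UMIs of both kinds of receptor.

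A smaller group of 52 wells (5.76%, from 17 mice, median 1390 UMIs) held *Il1rl1*, *Calca*, *Il13* or *Areg*, genes shared by type 2 helper cells and type 2 innate lymphoid cells. After thinning the share was 4.10% against 0.859% of CD4 *Lef1* cells, and close to the 3.88% of Treg cells. *Il1rl1*, which encodes the IL-33 receptor, was read in 26 of them, and *Calca*, the gene of the neuropeptide CGRP, gave 205 UMIs in 19 wells. *Gata3*, the factor of type 2 cells, was seen in 28.9% and *Rora* in 30.8% of these wells. CD3 genes were seen in 19.2% of these wells, below the 50.9% over all CD4 *S100a4* wells, αβ constant genes in 46.2% against 61.5%, and *Cd4* in 2. A γδ receptor UMI was also present in 14 of the 52. The third group, of 57 wells (6.31%, from 23 mice), held the cell cycle genes *Mki67*, *Top2a* or *Stmn1*, and was the deepest, at a median of 1859 UMIs. After thinning the cycle share was 3.43%, against 0.76% of CD4 *Lef1* cells and 10.2% of Treg cells. Both groups were likewise chosen after their values were known.

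The levels of CD4 *S100a4* cells were next set beside those of CD4 *Lef1* cells in the 26 samples with at least 10 wells of each, as the log2 ratio of CPM (the UMI counts of a gene scaled to equal library totals) with 10 CPM added. The authors formed both groups by clustering on these same genes, so the ratios describe the groups and were not tested. *Lgals1*, which encodes galectin-1, averaged 2885 CPM against 242.8 and was higher in 26 of 26 samples, with a median log2 ratio of 3.37. *Crip1*, the gene of a small LIM protein, averaged 3508 against 566.9 CPM (2.73, 26 of 26), *S100a4* 1063 against 148.8 CPM (3.33, 24 of 26) and *S100a6* 1031 against 233.9 CPM (2.28, 25 of 26). The samples with less *S100a4* than in CD4 *Lef1* cells were the primary tumors of mouse 9 (-1.085) and mouse 38 (-0.238), while the tumor of mouse 10 was at 3.651. *Ccr2*, a receptor for monocyte-attracting chemokines that memory T cells also carry, had a ratio of 2.43. The 15 highest ratios also included the γδ constant genes *Tcrg-C2* (2.94) and *Tcrg-C1* (2.71), and *Tmem176b* (3.08) and *Serpinb1a* (2.67), which the list of IL-17 type genes holds. *Tnfrsf18* (GITR, 2.28), *Capg* (2.51) and *Ikzf2* (Helios, 2.12) stood there as well, all 3 of them from the list of Treg genes. By list, 19 of 20 memory and effector genes had a median ratio above 0.

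Genes of naive cells were lower. *Dapl1*, a marker of naive T cells, averaged 87.25 CPM in CD4 *S100a4* cells against 472.0 in CD4 *Lef1* cells and was lower in 25 of 26 samples (log2 ratio -3.69). *Ccr7*, the lymph node homing receptor, averaged 166.6 against 651.4 CPM (-2.44, lower in 25 of 26). *Lef1* itself had a ratio of -1.67, and all 10 genes of the naive and central list had a median ratio below 0. *Cd8b1* (-3.28) and *Cd8a* (-2.47) were also among the 10 lowest, and a UMI of either was read in 19.1% of thinned CD4 *Lef1* wells. *Cd4* averaged 198.4 against 159.5 CPM and was higher in 15 and lower in 11 of the samples (ratio 0.27).

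**Figure D2:**
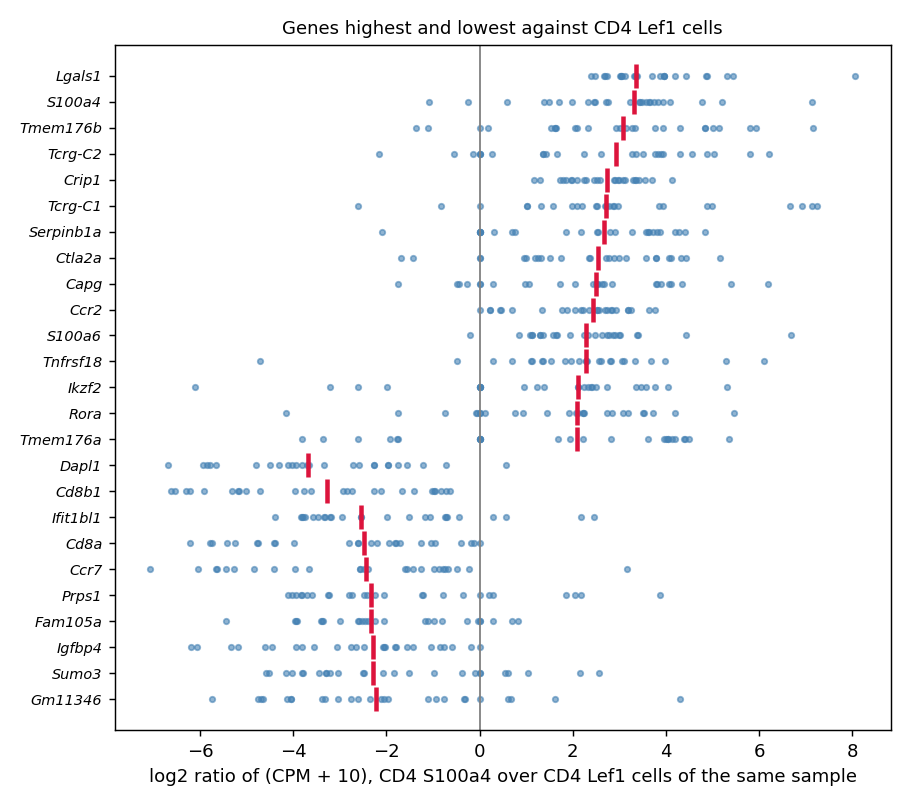
log2 ratio of CPM + 10 (x axis) between CD4 S100a4 and CD4 Lef1 cells of the same sample for the 15 genes with the highest and the 10 with the lowest median; each point is 1 of 26 samples and the red bar is the median. Lgals1 and Crip1 lie above 0 in all 26 samples, while S100a4 is below 0 in 2 of them, both primary tumors.

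Treg cells, in the 6 samples with enough wells of both, were closer in the memory genes. *Lgals1* had a ratio of -0.55 and *S100a4* of -0.39 against them, while all 10 Treg genes compared lay below 0 (median -1.79), *Foxp3* with 49.32 against 379.7 CPM. All 10 naive genes lay above 0 in that comparison (median 0.855). Against CD8 *Gzmk* cells, in 27 samples, the 10 cytotoxic genes lay below 0, with *Nkg7* at -3.62. *S100a4* (2.26, higher in 25 samples) and *Cd4* (2.27, higher in 21) lay above it.

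As a share of T cells, in samples with at least 20 T wells, CD4 *S100a4* cells made up 11.96% ± 1.04 (SD, n = 3) in Normal lungs, 13.9% ± 2.47 (n = 6) in Relapse-free, 12.7% ± 6.03 (n = 3) in Pre-MET, 13.03% ± 5.77 (n = 11) in distal normal tissue, 13.9% ± 6.31 (n = 9) in MET, 11.4% ± 5.19 (n = 12) in MET Core, 9.98% ± 6.50 (n = 6) in the margin and 21.5% ± 9.00 (n = 4) in primary tumors. The 4 primary tumors held 13.24, 24.05, 33.03 and 15.5%, and the cores ran from 3.70 to 20.8%, so the groups overlapped. The difference of 10.0 percentage points between primary tumors and cores had an exact permutation p = 0.01374 (two-sided), or 0.1099 after Benjamini-Hochberg adjustment over 8 comparisons, and did not pass. Its sign depended on the denominator. Of CD4 wells, primary tumors held 2.87 percentage points less than cores (a difference of -2.865), and of immune cells 1.60 points more. The only batch with both tissues held 1 of the tumors, at 13.24%, and cores with 7.14% of their T wells together. In the 3 mice with both a primary tumor and Pre-MET lungs, the shares were 13.24 and 18.37%, 24.05 and 6.36%, and 33.03 and 13.41% (exact sign-flip p = 0.5, where 0.25 is the smallest p that 3 pairs allow). The other 7 comparisons had adjusted p between 0.6429 and 0.8 by exact permutation tests. Among them, Pre-MET against Normal could not go below p = 0.1, nor cores against margins below p = 0.0625, by these tests, so neither could pass whatever the shares. MET exceeded distal normal tissue in 3 of 7 mice, and cores exceeded it in 4 of 10.

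**Figure D3:**
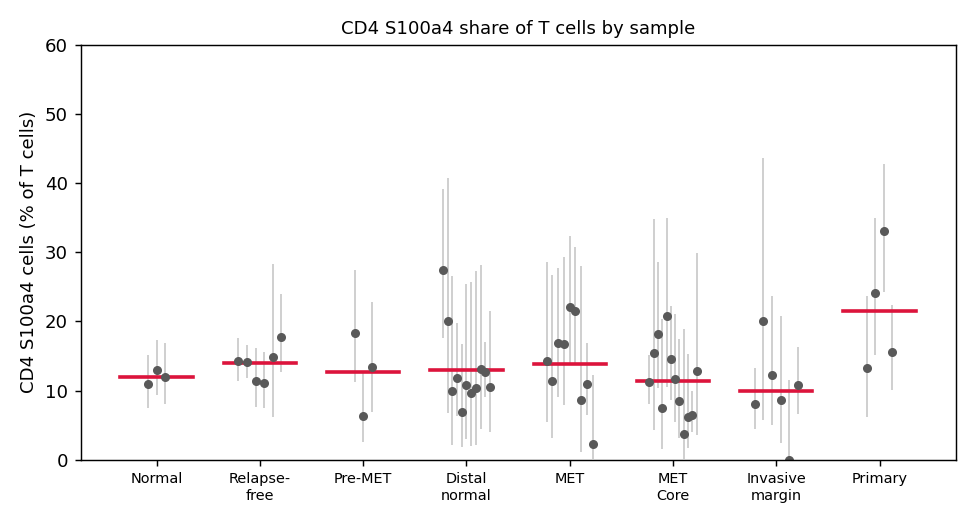
CD4 S100a4 cells as a percentage of T cells (y axis) by tissue; each point is 1 sample with at least 20 T wells, grey bars are exact 95% binomial intervals and red bars group means. Primary tumors reach a mean of 21.5%, and their range overlaps that of every tissue with more than 3 samples.

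For expression, the wells of each mouse and tissue were summed where there were at least 10, which used 762 wells in 27 sums of 10 to 123 wells and 7873 to 156528 UMIs: 3 Normal, 5 Relapse-free, 2 Pre-MET, 3 distal normal, 4 MET, 5 MET Core, 2 margin and 3 Primary. edgeR's quasi-likelihood test with Benjamini-Hochberg adjustment was run on the 1819 genes that passed a filter on low counts, so many members of each gene list were not tested. A gene could pass that filter through the tissue where it was high. Counts of list members called, or above or below 0, therefore describe the members tested and are no test of a list. The sums of 1 group are separate mice. In a sum, fewer cells of a type and less RNA per cell cannot be told apart.

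*S100a4* varied between tissues. It measured 644.6, 552.3 and 888.2 CPM in Normal lungs, and 1381, 1469, 1832, 574.0 and 841.3 CPM in Relapse-free lungs. Distal normal tissue had 2368, 1421 and 1011 CPM and MET 2019, 2027, 1118 and 551.0 CPM. Cores had 405.5, 899.3, 1397, 1035 and 1275 CPM, and primary tumors 86.25, 492.3 and 77.14 CPM, so that all 3 tumors lay below the 3 Normal lungs and 2 of them below every core. Neither difference passed the test: the log2 fold change of cores over primary tumors was 1.50 (SE 0.555, adjusted p = 0.2819 by edgeR), and that of primary tumors over Normal lungs was -1.10 (adjusted p = 0.3238). The share of thinned wells with an *S100a4* UMI ran in a like order, from 30.0% in distal normal tissue through 25.9% in Relapse-free lungs to 14.5% in cores, 14.3% in Normal lungs and 5.75% in primary tumors. *Lgals1* was read in every sum, between 1013 and 6445 CPM.

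Primary tumors against Normal lungs gave the most differences, with 31 genes higher and 40 lower in the tumor (3.9% of genes tested, 1.7% higher and 2.2% lower). Among those that rose were 4 of 8 glycolysis and hypoxia genes tested, 2 of 5 Treg genes, 3 of 18 type I interferon response genes and 1 of 5 checkpoint and co-stimulatory receptor genes (*Icos*). The 10 largest rises also held predicted genes and transcripts such as *A130071D04Rik* (at least 25.2-fold, and 13.8-fold without Normal mouse 2) and *Gm10800* (log2 fold change 7.26). *Crip1* and the ribosomal protein genes *Rpl35* and *Rps27* were among those that fell. With the mouse as a block and a linear model (limma voom), 110 genes passed, 68 of them shared with the 71. Block and model changed together, here and wherever the block is named below, so their parts cannot be told apart. No mouse gave both a primary tumor sum and a Normal sum. With the Relapse-free lungs joined to Normal, a choice made after seeing the data, 74 rose and 86 fell (63 shared). A limit is that these tumors and these lungs were never sequenced together. The paper also dissociated lungs and tumors with different machine programs. The part of this step cannot be told apart from the tissue in any comparison of primary tumors with lung tissue, cores and CD4 *Lef1* cells included.

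*Pkm*, the gene of pyruvate kinase at the end of glycolysis, measured 2113, 953.8 and 752.2 CPM in primary tumors and 153.5, 217.0 and 0 CPM in Normal lungs. Every tumor lay above every lung, and the log2 fold change was 3.54 (SE 0.731, edgeR adjusted p = 0.002535). *Aldoa*, encoding aldolase, measured 970.3, 1108 and 308.6 against 92.08, 59.17 and 142.1 CPM (log2 fold change 3.44, adjusted p = 0.003511). *Tpi1*, encoding triosephosphate isomerase, measured 927.2, 348.7 and 347.1 CPM and had no UMI in the 3 Normal lungs, so that it was at least 18.0-fold higher, taking 3 UMIs over the lungs as the floor (adjusted p = 0.00927), or 9.82-fold without Normal mouse 2, whose sum was the deepest of these lungs. *Hif1a*, the oxygen-sensing transcription factor gene, averaged 356.4 against 6.575 CPM (5.29, adjusted p = 0.01344), but did not pass with the Relapse-free lungs joined (2.13, adjusted p = 0.06392). Of the 14 glycolysis and hypoxia genes 8 were tested, these 4 rose, and all 8 lay above 0, with a median log2 fold change of 2.84 beside 0.176 over all genes. The 8 were not chosen apart from their levels in tumors, since *Tpi1*, without a UMI in Normal lungs, could not pass the filter through those lungs. *Eno1* (2.22, adjusted p = 0.1191), *Ldha* (1.68, adjusted p = 0.1656) and *Gpi1* (0.31) did not pass.

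*Ikzf2*, which encodes Helios, a transcription factor of Treg and of some activated T cells, measured 1531, 1036 and 713.6 CPM in primary tumors and 61.39, 0 and 0 CPM in Normal lungs. Of the sums of other tissues, 1 of distal normal tissue reached 721.9 CPM and the rest lay at or below 400.8 CPM, with none in the 4 MET sums. Its log2 fold change was 6.00 (SE 1.26, edgeR adjusted p = 0.002856). *Icos*, a co-stimulatory receptor gene of activated CD4 cells, measured 1402, 902.5 and 578.6 against 92.08, 118.3 and 248.7 CPM (3.02, adjusted p = 0.006984). This call was lost without Normal mouse 1 or 2. *Capg*, an actin-capping protein gene from the Treg list, averaged 453.6 against 43.11 CPM (3.48, adjusted p = 0.02566), and was not called with the Relapse-free lungs joined (adjusted p = 0.1837). *Il2ra* (4.30, adjusted p = 0.1137) and *Tnfrsf18* (1.59) did not pass, which left 2 of the 5 Treg genes tested. *Foxp3* was too low to be tested, with 21.56, 20.51 and 57.86 CPM in the tumors and none in Normal lungs.

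*Ltb*, the gene of lymphotoxin β, measured 2027, 800.0 and 1485 CPM in primary tumors against 214.9, 295.9 and 497.4 CPM in Normal lungs (log2 fold change 2.42, edgeR adjusted p = 0.0166). *Rgs1*, a regulator of G protein signaling seen in tissue-resident T cells, averaged 643.3 against 90.61 CPM (3.12, adjusted p = 0.03016), and was not called with the Relapse-free lungs joined (adjusted p = 0.07468). *Tnfsf8*, the CD30 ligand gene, was at least 10.1-fold higher (adjusted p = 0.03336 by edgeR), with overlapping samples. The bound was 5.48-fold without Normal mouse 2 and 6.22-fold without Primary mouse 9. *Tnfsf8* lost its call under limma voom with the mouse as a block (adjusted p = 0.09823).

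Among 37 type I interferon response genes, 18 were tested, 3 rose, beside 1.7% of all genes tested, and 16 lay above 0 (median 1.88, beside 0.176 over all genes, or 0.322 over all genes with RLE size factors). *Trim30a*, an interferon-induced TRIM protein gene, measured 560.6, 584.6 and 192.9 CPM in primary tumors against 30.69, 39.45 and 0 CPM (4.34, edgeR adjusted p = 0.03645). *Ifit3*, which encodes an antiviral RNA-binding protein, measured 43.13, 1190 and 173.6 CPM against none in Normal lungs, at least 24.1-fold higher (adjusted p = 0.01335). Its mean rested on Primary mouse 10, without which the bound was 4.16-fold, and without Normal mouse 2 it was 13.1-fold. *Slfn1*, a Schlafen gene of T cell quiescence, was at least 9.68-fold higher against no UMI in Normal lungs (adjusted p = 0.01697), or 5.27-fold without Normal mouse 2. It was read in all 5 Relapse-free lungs, between 42.61 and 274.3 CPM, and lost its call when those were joined (adjusted p = 0.1589). *Ifit1* did not pass (6.77, adjusted p = 0.05719).

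*Crip1* fell from 3960, 6312 and 4299 CPM in Normal lungs to 366.6, 1077 and 810.0 CPM in primary tumors (log2 fold change -2.29, SE 0.537, edgeR adjusted p = 0.00517). It is 1 of the genes by which the cells stood out from CD4 *Lef1* cells, and the call was lost without Primary mouse 9. *Rpl35*, a ribosomal protein gene, measured 2609, 2150 and 4015 CPM in Normal lungs and 86.25, 71.79 and 77.14 CPM in primary tumors (-4.81, adjusted p = 1.422e-05). *Rps27* (-4.57) and *Myl6*, a myosin light chain gene (-4.59), fell as well. The remaining falls among the 10 largest were pseudogenes and predicted genes such as *Rps24-ps2* (at least 22.8-fold, and 11.5-fold without Primary mouse 10) and *Gm25594* (at least 34.5-fold, and 17.3-fold without it), for which near-identical copies make the counts uncertain, because the authors excluded reads with several mapping positions. *Rpl35* also varied among the 5 Relapse-free lungs, from 329.2 to 4077 CPM. The part of the batch in the ribosomal genes was not tested against Normal, which has no second batch.

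The sums also held low levels of markers of other cells. The summed level of 11 myeloid markers ran from 983.6 to 2631 CPM in primary tumors and from 675.3 to 2203 CPM in Normal lungs, and of 7 B cell markers from 366.6 to 605.1 and from 248.7 to 1136 CPM. The 6 NK cell markers summed to 21.56 to 492.3 CPM in tumors and to 0 to 177.6 CPM in Normal lungs. Erythroid markers were at 0 in the tumors and between 0 and 213.2 CPM in Normal lungs. Of the 2 B cell, 6 myeloid and 1 erythroid markers tested, none was called, and the part of such cells in the changes above was not tested. Outside that list *Ms4a4a*, a gene best known from macrophages, was called higher in primary tumors, with 1229, 994.8 and 19.29 CPM against 0, 19.72 and 0 CPM in Normal lungs (log2 fold change 6.39, edgeR adjusted p = 0.0119, and 0.1172 with DESeq2). That call was lost without Normal mouse 1 or 3. Summed EO771 and mammary epithelial markers stayed at or below 50.93 CPM in every sum.

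The same primary tumor and lungs were compared in CD4 *Lef1* cells, which were sequenced in the same batches, with 3 tumor and 8 lung samples of Normal and Relapse-free mice. There 478 genes differed between tumor and lung, and no gene of 4164 differed in its change between the CD4 groups after adjustment (edgeR, sample as block; 317 at an unadjusted p under 0.05), a comparison added after seeing the data. *Rpl35* had log2 fold changes of -4.69 in CD4 *S100a4* and -4.04 in CD4 *Lef1* cells, *Ikzf2* of 3.35 and 3.91, *Pkm* of 2.52 and 1.87, and *Crip1* of -2.34 and -1.65. The smallest p of a difference belonged to genes that the tumor comparison does not name: *Il1b*, the interleukin-1β gene (1.69 in CD4 *S100a4* and -3.19 in CD4 *Lef1* cells, p = 5.207e-05), *Sit1*, a T cell signaling adaptor gene (-2.74 and 2.62, p = 0.0001712), the immediate early gene *Fos* (-0.33 and -3.03, p = 0.0001789), *Ccl5*, a chemokine gene also read in 11.1% of thinned B cells (0.21 and -2.52, p = 0.0002307), and *Bcl2* (2.53 and 0.036, p = 0.0002427), each with an adjusted p of 0.2022 by edgeR. Of these genes only *Bcl2* was called in CD4 *S100a4* cells themselves (adjusted p = 0.002341 by edgeR). The paper names *Il1b* among the genes of a macrophage group, and the part of background in its change was not tested. Among the genes named for the tumor, an unadjusted p of the difference under 0.05 was found for, among others, *Rps24-ps2* (-7.08 against -2.59, p = 0.003206, adjusted p = 0.4603 by edgeR), *Tpi1* (4.55 against 1.95, p = 0.04239, adjusted p = 0.6293 by edgeR), *Trim30a* (2.83 against 1.06, p = 0.02885, adjusted p = 0.6276 by edgeR) and *Icos* (2.14 against 0.98, p = 0.03019, adjusted p = 0.6276 by edgeR).

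**Figure D4:**
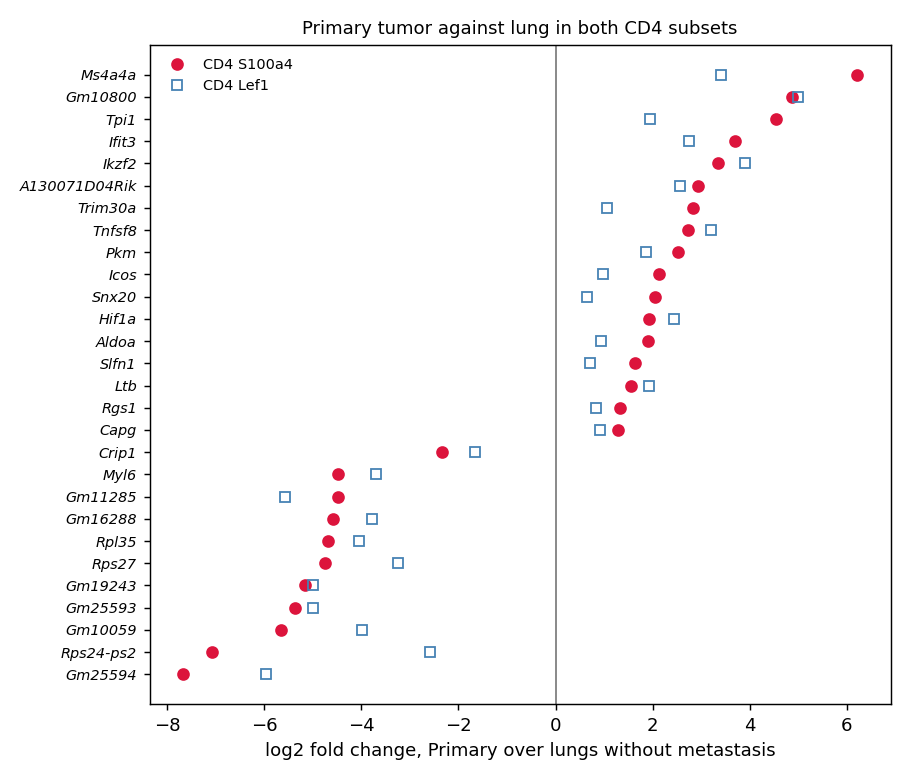
log2 fold change of primary tumors over Normal and Relapse-free lungs (x axis) for the genes named for Primary against Normal, in CD4 S100a4 cells (filled circles) and CD4 Lef1 cells (open squares). The genes were chosen for their change in CD4 S100a4 cells, and genes of opposite sign, such as Il1b, are not among them; Pkm is at 2.52 and 1.87.

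The metastasis core against the primary tumor compared T cells of both tumor sites. Of the genes tested, 1 was higher and 7 were lower in cores (0.44%, 0.055% higher and 0.385% lower), and 14 were lower and none higher with the mouse as a block (6 shared with the 8). With DESeq2 8 were higher and 7 lower (4 shared), so the excess of falls was not kept. *Pkm* measured 135.2, 374.7, 0, 258.7 and 443.5 CPM in cores, below all 3 primary tumors (2113, 953.8 and 752.2 CPM), with a log2 fold change of -2.73 (SE 0.605, edgeR adjusted p = 0.01291). The call was lost without Core mouse 17 or Primary mouse 9. All 8 glycolysis and hypoxia genes tested lay below 0 (median -1.28, beside -0.036 over all genes), and *Pkm* alone passed. *mt-Cytb*, the mitochondrial cytochrome b gene, averaged 3867 CPM in cores and 8669 in primary tumors (-1.61, adjusted p = 0.005861), and *Xist*, the RNA of the inactive X chromosome, 380.5 and 2507 CPM (-3.04, adjusted p = 0.005861). Both lost their call without Primary mouse 10. *Ms4a4a*, a membrane protein gene best known from macrophages, averaged 2.703 against 747.7 CPM (-6.67, adjusted p = 0.0107), with 1229 and 994.8 CPM in 2 tumors and 19.29 in the other, and did not pass with the mouse as a block (adjusted p = 0.05218). The other 4 calls were predicted genes and transcripts. No call was left when only wells of at least 1000 UMIs were used.

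Cores against Normal lungs gave 4 higher and 14 lower genes (0.99%, 0.22% higher and 0.77% lower). *Ly6a*, which encodes Sca-1, a surface protein that interferon and T cell activation raise, measured 4596, 2248, 1905, 4526 and 2938 CPM in cores and 306.9, 670.6 and 248.7 CPM in Normal lungs. All 5 cores lay above all 3 lungs, and the log2 fold change was 2.93 (SE 0.543, edgeR adjusted p = 0.002887). *Aldoa* rose from 97.79 to 593.3 CPM on average (2.70, adjusted p = 0.04402), but not with the mouse as a block (adjusted p = 0.1513). *Cep85*, a centrosomal protein gene, measured 270.3, 599.6, 762.1, 258.7 and 1164 against 30.69, 0 and 0 CPM (5.49, adjusted p = 0.01166, and 0.05644 with the block). It reached 210.5 CPM in Relapse-free mouse 18 and 274.3 CPM in Relapse-free mouse 35, the latter above the lowest cores. *Rflnb*, an actin-organizing gene, had no UMI in the 5 cores against 337.6, 59.17 and 532.9 CPM in Normal lungs, at least 11.8-fold lower (adjusted p = 0.0433, and 0.1034 with the block). That bound was 5.42-fold without Core mouse 17, 7.65-fold without Normal mouse 3 and 19.5-fold without Normal mouse 2. The other falls among the 10 largest were ribosomal protein genes and predicted genes, *Rpl35* (-2.70, adjusted p = 0.003836) among them. With another scaling (RLE size factors) 3 genes rose and 2 fell, so the excess of falls was not kept, and with DESeq2 18 rose and 23 fell. With the block 1 gene rose, *Ly6a* (3.04, adjusted p = 0.003645), and 4 fell.

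Of the naive and central, interferon response and Treg lists, no member was called in cores against the 3 Normal lungs. All 9 naive and central genes tested lay below 0 in cores (median -1.49, beside 0.128 over all genes) and 16 of 18 interferon response genes lay above 0 (median 1.62), while the summed level of all 37 overlapped, from 1905 to 19180 CPM in cores and from 2578 to 3766 CPM in Normal lungs. *Tnfrsf18* (2.25, edgeR adjusted p = 0.07631) and *Capg* (3.12, adjusted p = 0.09753) came nearest among the 5 Treg genes tested. In CD4 *Lef1* cells of 4 core and 8 lung samples *Ly6a* had a log2 fold change of 1.57, against 2.23 in CD4 *S100a4* cells of the same samples (p of the difference 0.03488, adjusted p = 0.9982 by edgeR). Against these 8 lungs, 5 of them Relapse-free, *Ccr7* of the naive and central list was called lower in CD4 *S100a4* cells (-4.06, edgeR adjusted p = 0.02565), beside -0.19 in CD4 *Lef1* cells (p of the difference 0.0006497, adjusted p = 0.8546 by edgeR).

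Metastasis-bearing sections against Normal lungs gave 6 higher and 20 lower genes (1.43%, 0.33% higher and 1.1% lower). With DESeq2 16 were higher and 27 lower. In wells of at least 1000 UMIs 5 were higher and 1 lower, so the excess of falls was not kept there. That setting also changed which sums held enough wells, and the part of depth was not tested. *Icos* measured 1010, 1340, 931.4 and 826.4 CPM in the 4 MET sums, all above the highest Normal lung at 248.7 CPM (log2 fold change 2.69, edgeR adjusted p = 0.03046). *Capg* measured 642.5, 721.4, 409.8 and 1267 CPM against 30.69, 98.62 and 0 CPM (3.74, adjusted p = 0.02819). *Gltp*, a glycolipid transfer protein gene, averaged 517.1 against 38.14 CPM (3.46, adjusted p = 0.02819), and was at 219.5 to 554.0 CPM in the 5 Relapse-free lungs as well. With the mouse as a block only 1 gene passed, which fell, and *Icos* and *Capg* both had an adjusted p of 0.1045 and *Gltp* of 0.09803. Leaving out MET mouse 31 or 36 also ended all calls. *Icos* was lower in the 3 distal normal sums, at 280.1, 437.2 and 517.4 CPM, than in any of the 4 MET sums. No gene was called between these tissues, *Icos* included, and only mouse 36 gave both.

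**Figure D5:**
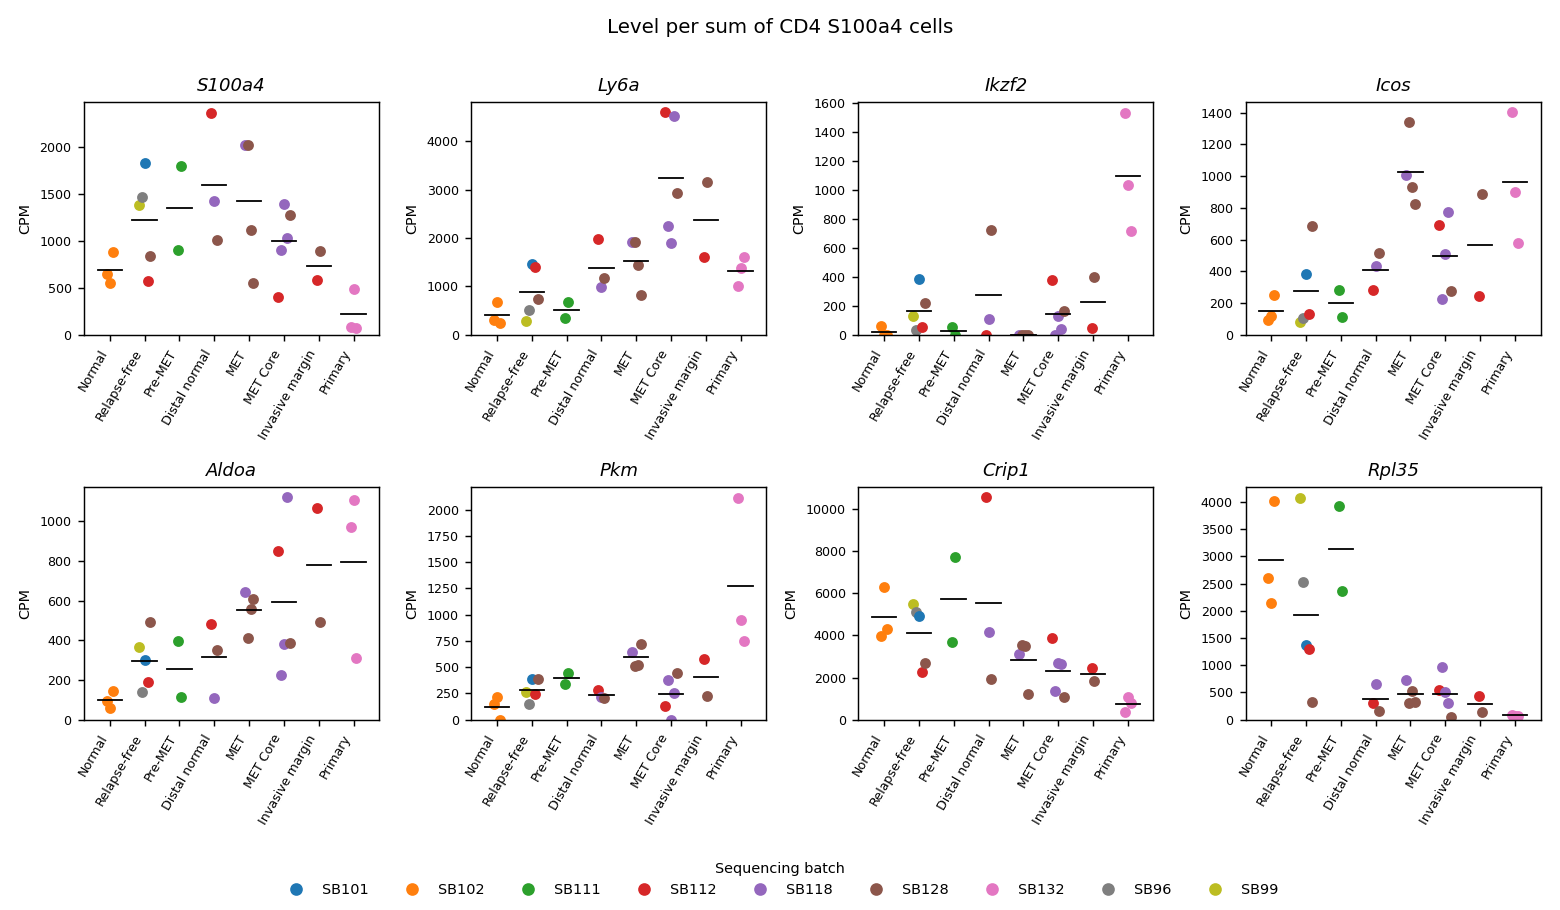
Level per sum (y axes, CPM, linear from 0) of 8 genes in CD4 S100a4 cells by tissue; points are sums of 1 mouse and tissue, colored by sequencing batch, and black bars group means. The 5 cores lie above the 3 Normal lungs for Ly6a and the 3 primary tumors above them for Pkm, while Rpl35 lies near 0 in primary tumors and spreads from 329.2 to 4077 CPM in Relapse-free lungs.

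Between the tissues of metastatic lungs, no gene differed between MET and distal normal tissue (0% of genes tested, 99 at an unadjusted p under 0.05, and none by DESeq2). The distal normal sums were of mice 17, 27 and 36 and the MET sums of mice 28, 31, 32 and 36, so only mouse 36 gave both, and the comparison was mostly between mice. *Tcrg-C1* measured 713.1, 1202 and 998.6 CPM in distal normal tissue and 0, 68.70, 186.3 and 55.10 CPM in MET, without overlap (log2 fold change -3.45, SE 0.946, edgeR adjusted p = 0.4911). *Tcrg-C4* measured 509.3, 546.5 and 649.7 against 0, 0, 0 and 110.2 CPM (-4.44), *Trdc* had a log2 fold change of -3.86, and *Tcrg-C2* of -1.53 with overlap. In mouse 36 alone, *Tcrg-C1* was at 998.6 CPM in distal normal tissue and 55.10 CPM in MET. All 4 lay below 0 (median -3.66, beside -0.075 over all genes), 3 of them at an unadjusted p under 0.05. By wells, 40.0, 50 and 27.03% of the distal normal sums and 16.67, 15.79, 4.55 and 11.76% of the MET sums held a γδ receptor UMI, and 23.68, 21.43, 30.0, 35.29 and 5.26% of the cores. Over all wells of a tissue, after thinning, the share was highest in distal normal tissue, at 23.6%, and lowest in primary tumors, at 2.30%.

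The remaining lung comparisons gave no call. Relapse-free against Normal had 74 genes and Pre-MET against Normal 167 at an unadjusted p under 0.05 (0% called in each, edgeR, and none by DESeq2). *Gltp* in Relapse-free lungs lay above every Normal lung (3.21, adjusted p = 0.776). Cores against margins had 110 such genes (0% called, and none by DESeq2). The 2 margin sums were of mice 17 and 36, which also gave core sums, and both fits took all sums as separate. No gene passed with the mouse as a block either. *AW112010*, an interferon-inducible transcript, averaged 2943 CPM in cores and 556.1 in margins (2.30, adjusted p = 0.7805).

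With the wells of all lesion tissues of a mouse summed, 8 lesion mice were set against 8 lungs without metastasis (3 Normal, 5 Relapse-free), which gave 7 higher and 14 lower genes of 1822 (1.15%, 0.384% higher and 0.768% lower). Under RLE size factors 6 rose and 3 fell, and with DESeq2 9 rose and 7 fell. *Ly6a* ran from 1415 through a median of 2160 to 3943 CPM in lesions and from 248.7 through 597.2 to 1470 CPM in lungs. In 7 of 8 lesions it exceeded all lungs, with a log2 fold change of 1.75 (SE 0.339, edgeR adjusted p = 0.007493). It kept its call without any 1 sum. All 8 naive and central genes tested lay below 0 (median -0.87, beside -0.004 over all genes), *Ccr7* with -2.03 (adjusted p = 0.1017 by edgeR) and *Lef1* with -1.97 (adjusted p = 0.157), neither of which passed.

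*Tnfrsf9*, the activation-induced receptor 4-1BB, gave 61 UMIs in 6 of the 8 lesions and none in the 8 lungs, at least 37.4-fold higher (edgeR adjusted p = 0.007734). Of those UMIs 37 came from mouse 17, without which the bound was 21.4-fold. *Traf1*, an adaptor of such receptors, averaged 183.4 against 15.71 CPM (2.99, adjusted p = 0.04426), *Ifit1* 99.94 against 3.989 CPM (3.95, adjusted p = 0.04867), and *Cep85* 483.0 against 78.37 CPM (2.39, adjusted p = 0.04426). The histone genes *Hist1h2ao* (4.70) and *Hist1h2ap* (4.20), whose sequences are near copies, were read in 5 lesions each. *mt-Co2*, a mitochondrial cytochrome oxidase gene, fell from 2845 to 1006 CPM (-1.69, adjusted p = 0.008119), and *Rpl35* from 2297 to 856.0 CPM (-1.66, adjusted p = 0.0426).

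Lesions and lungs shared the batch of most of their wells in 2 cases, 1 lesion and 1 lung mouse in 1 batch and 3 and 1 in the other, where the sums of lesion mice 31 and 32 also held wells of another batch. With each sum in its main batch, the log2 ratio of *Ly6a* was 1.49 and 1.31 and of *Traf1* 4.32 and 3.22. It was 2.12 and 2.14 for *Ifit1* but only 0.569 and 1.293 for *Cep85*. *Hist1h2ao* and *Hist1h2ap* had no UMI in lesion or lung of the first batch, and ratios of 4.79 and 4.09 in the other. *Tnfrsf9* averaged 391.1 and 113.8 CPM in these lesions and was at 0 in both lungs. For *mt-Co2* the log2 ratio was -1.23 and 0.077, and for *Rpl35* -1.31 and 0.014. With the batch as a term of the fit no gene passed (*Ly6a* 1.43, adjusted p = 0.9951 by edgeR), and 72 had an unadjusted p under 0.05.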

How the data were processed

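Single cells were sorted into plates and their mRNA was counted by unique molecular identifiers. The authors mapped reads to mm10, excluded reads with several mapping positions and deposited raw UMI counts of 52634 gene rows per well for 148 plates, with a table that labels the wells of at least 500 UMIs by the authors' clustering. Per the labels, bcl2fastq 2.15.0.4 was used. Reads were assigned to exons as the UCSC genome browser gives them, with no release named in the sources used here, and positions are those of GENCODE vM21. Doublets were excluded at the sort, and no further caller was run. The 592 wells left empty held a median of 8 UMIs.

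The members and the gene lists were chosen with earlier results of these data known. Counts of member wells were summed per mouse and tissue (at least 10 wells) and tested with edgeR 4.0.16 (TMM, filterByExpr, quasi-likelihood, all tissues in 1 fit, Benjamini-Hochberg, called at an adjusted p below 0.05) in R 4.3.3. The named genes were the 10 largest changes in each direction among called genes, the 3 with the smallest p in each direction where none was called, and genes of the 29 lists. Results for 2 genes are not reported here, and counts include them. Alternatives were DESeq2 1.42.0, RLE size factors, no filter, sums of at least 5 wells, wells of at least 1000 UMIs, each sum left out, the batch as a term and the mouse as a block (limma 3.58.1). Sums of the same mouse share a mouse by the labels. The deviations of 12 same-mouse pairs from their tissue means had a mean correlation of 0.108 (0.0152 to 0.164, above 0.1 in 7), against -0.00433 for other pairs. The block's correlation was 0.133. Shares were compared by exact permutation tests, two-sided, in samples of at least 20 T wells. The tests were checked on simulated data. Wells were summed and described in Python 3.11.15 with pandas 2.3.3, numpy 2.4.6, matplotlib 3.10.9 and scipy 1.17.1. Intervals cover counting error only.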

Additional observations from a re-analysis of the deposited data

Results flagged for a closer look

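In the groups of 4 or 5 sums, 37 combinations of gene and tissue were tested for a sample far from the others, of which chance flags about 1 in 20, and 1 was flagged. *Cxcr6* stood apart in 1 core (mouse 27), at 2032 CPM beside 74.95 to 486.6 CPM in the other 4. That core also had 1397 CPM of *Tcrg-C1*, and 30.0% of its wells held a γδ receptor UMI, whose part in its *Cxcr6* level was not tested.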

How the results depend on the processing

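Sums held 10 to 123 shallow wells, so a gene of few UMIs can rest on 1 mouse or 1 well, and genes that did not pass may still differ. The count of called genes moved by more than 1.5 times under these settings. Primary against Core (8) gave 15 with DESeq2, 13 without the filter and 0 in wells of at least 1000 UMIs. Primary against Normal (71) gave 160 with Relapse-free lungs joined, 109 with DESeq2 and 40 without the filter. Core against Normal (18) gave 41 with DESeq2, 5 with RLE, 8 with sums of at least 5 wells and 2 in wells of at least 1000 UMIs. MET against Normal (26) gave 43 with DESeq2, 14 with sums of at least 5 wells and 6 in the deeper wells. Distal normal against MET (0) gave 2 without the filter and 1 with at least 5 wells, Relapse-free against Normal (0) gave 1 without the filter, and lesion against lung (21) gave 9 with RLE and 0 with the batch as a term. RLE moved the median of all genes from -0.452 to -0.09 for Pre-MET against Normal, from 0.176 to 0.322 for Primary against Normal and from 0.128 to 0.309 for Core against Normal. The cause of these changes was not tested.

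The replicate block took sums of 1 mouse as correlated and used limma voom in place of edgeR, so the parts of block and model cannot be told apart. Normal shared no mouse with another tissue. Primary against Core gave 14, Primary against Normal 110, Core against Normal 5 and MET against Normal 1, and the comparisons without calls kept 0. Of the named genes 36 kept their call and 30 lost it under the block, 16 of them in MET against Normal.

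Leaving out each sum in turn gave 4 to 9 genes for Primary against Core (4 without Core 17, Primary 10 or Primary 38, and 5 without Core 25 or Primary 9) and 37 to 60 for Primary against Normal (37 without Primary 10, 40 without Normal 1). Core against Normal gave 2 to 21 (2, 3 and 5 without Normal 3, 2 and 1, 4 without Core 36, 6 without Core 28 and 11 without Core 17). MET against Normal gave 0 to 29 (0 without MET 31 or 36, 4 without Normal 3, 12 without MET 32 and 14 without Normal 1), and Pre-MET against Normal 0 to 1 (1 without Pre-MET 8). Lesion against lung gave 5 to 56 (56 without lesion 30, 46 without lung 35, 5 without lesion 31 or 32 or lung 2, 3 or 6, 6 without lesion 36, 7 without lesion 28 or lung 7, 8 without lesion 25, 9 without lung 11, 11 without lung 1 and 12 without lesion 27). The other 3 comparisons stayed at 0. Of the single fits of named genes with a sum left out, 364 kept the call and 351 lost it. With DESeq2 67 named genes kept their call and 8 lost it, with RLE 62 and 21, without the filter 55 and 28, with sums of at least 5 wells 46 and 23, and in wells of at least 1000 UMIs 37 and 44. With the batch as a term 16 lost it and *Gm25594* in lesions turned to 0.108.

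The differences in share (percentage points) turned with the denominator. Of CD4 wells they were -2.865 for Primary minus Core, -1.576 for Pre-MET minus Normal, 6.404 for Core minus distal normal, 5.693 for Core minus MET and 8.255 for Core minus margin. Of immune cells Pre-MET minus Normal was -2.153, MET minus distal normal -0.7338, Core minus distal normal 1.044, Core minus MET 1.528 and Core minus margin 0.1678. Among wells of at least 1000 UMIs Pre-MET minus Normal was -4.464 and Core minus margin 0.2134. Leaving out 1 mouse, Core minus distal normal ran from -2.648 to 0.1383 (above 0 without mouse 17), Core minus margin from -3.69 to 0.2304 (above 0 without mouse 26), Pre-MET minus Normal from -2.071 (without Pre-MET 8) to 3.931, Core minus MET from -5.637 to -0.8963, MET minus distal normal from 0.6307 to 4.067, Primary minus Core from 6.173 to 12.77, Primary minus Pre-MET from 6.277 to 18.65 and Relapse-free minus Normal from 1.183 to 2.53. Not run for want of sums or mice were the Pre-MET and margin comparisons of genes, and the shares of MET against distal normal and Core against MET, in wells of at least 1000 UMIs, and the batch term for comparisons of genes with Normal or Primary.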
